A study of Homo sapiens with 6 samples.

Results

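The 4 genes described here encode EBP, SC5D, DHCR7 and LBR, enzymes that rearrange, desaturate or reduce the sterol skeleton late in cholesterol synthesis. They were taken by gene symbol, by a rule that uses no measured value but was written with earlier results of these data known, and are 4 of the 26485 genes in the count table. All 4 passed the low-count filter and stand among the 12107 genes tested. Polyadenylated RNA of the human cell line H9, an established line that is labelled as cutaneous T lymphocytes, was sequenced in 3 libraries of cells given 1 µM of the compound PA4 for 24 h and 3 libraries of control cells given DMSO, the solvent, for the same 24 h. The series title calls the compound under study a berbamine derivative, and its design text asks how PA4 leads to cell death. All libraries come from 1 cell line grown in medium with fetal bovine serum, in both groups. Whether libraries with different replicate numbers were grown as separate cultures is not stated, and p-values therefore measure the spread between these libraries, which may be technical.

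Cholesterol is built in the endoplasmic reticulum from squalene by way of a series of ring-containing intermediates. LBR, an integral protein of the inner nuclear membrane with a sterol reductase domain, removes a double bond that CYP51A1 leaves at carbon 14, and TM7SF2 catalyses the same reduction. EBP, the emopamil binding protein, moves a ring double bond to a new position, SC5D introduces a second double bond into the ring, and DHCR7 reduces 7-dehydrocholesterol to cholesterol, or the corresponding precursor that still has an unsaturated side chain. The substrate of DHCR7 is also the precursor of vitamin D3. EBP and DHCR7 together form the antiestrogen binding site, which binds tamoxifen and many other cationic amphiphilic molecules, and inherited loss of DHCR7 causes Smith-Lemli-Opitz syndrome. Genes of sterol synthesis are activated by the SREBP transcription factors when sterol in the endoplasmic reticulum is low. LBR also binds B-type lamins and heterochromatin, so its transcript serves a structural as well as an enzymatic protein.

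The libraries held 18282212 to 22875191 counts and 15023 to 15278 detected genes each, and no pair of libraries agreed within sampling noise, the chi-square of their counts being 1.48 to 6.81 times its degrees of freedom. T cell identity was checked with 11 marker genes, of which 0 were at zero in all libraries, 0 were called by edgeR and 1 was lower with PA4 at an unadjusted p under 0.05. Their summed level was 945 to 984 CPM (counts-per-million, the share of the library total that falls on a gene) in PA4 libraries and 967 to 1014 CPM in control libraries. The 6 myeloid markers summed to at most 0.746 CPM with PA4 and 0.570 CPM in control, and the 6 fibroblast markers to at most 1.23 CPM with PA4 and 1.04 CPM in control. The 6 B cell markers summed to 19.5 to 21.4 CPM with PA4 and 18.5 to 21.9 CPM in control, and the 5 natural killer markers to 16.0 to 18.8 CPM with PA4 and 17.8 to 20.3 CPM in control. CSF1R, FCGR3A, S100A8, COL1A2, COL3A1, DCN, CD22 and NCR1 had no count in any library. The 5 epithelial markers summed to 208 to 214 CPM in PA4 libraries and 196 to 218 CPM in control libraries. Of this sum EPCAM made up 134 ± 1.19 CPM with PA4 and 126 ± 2.61 CPM in control (SD, n = 3 each). KRT7 made up 70.0 ± 3.78 CPM with PA4 and 71.3 ± 12.7 CPM in control (SD, n = 3 each). The log2 fold change was 0.086 for EPCAM, -0.025 for KRT7 and -0.17 for CDH1, while KRT8 and KRT18 were not tested. By edgeR 0 of the 5 were called and 1 was higher with PA4 at an unadjusted p under 0.05, and their part in the results below was not tested. In edgeR 28 of the 12107 genes were called at an adjusted p under 0.05, 0.215% of all genes as higher and 0.0165% as lower with PA4.

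EBP lies on chromosome X of GRCh38.p14 at 48521808 to 48528716 on the plus strand, and SC5D on chromosome 11 at 121292771 to 121313410, also on the plus strand. DHCR7 lies on the minus strand of chromosome 11 at 71427287 to 71449043, and LBR on the minus strand of chromosome 1 at 225401502 to 225428821, all per RefSeq. In GENCODE release 29 the exons formed 6 separate blocks in EBP, 5 in SC5D, 11 in DHCR7 and 16 in LBR, and none of the 4 shared an exon base with another annotated gene. The 250 bases before the start site are shown for EBP, SC5D and DHCR7. These are the members whose 3 PA4 libraries all lay above the control libraries, so they were picked by their measured values. Their stretches hold boxes of the kinds known to act beside sterol regulatory elements, and a link between boxes and response was not tested. Sequences are from RefSeq on GRCh38.p14, written 5′ to 3′ on the strand of the gene, at chrX:48521558-48521807, chr11:121292521-121292770 and chr11:71448394-71448643. Capitals mark the letters CCAAT, the box bound by NF-Y, and GGGCGG, the box bound by Sp1, each on either strand, so that a box on the other strand reads ATTGG or CCGCCC.
EBP: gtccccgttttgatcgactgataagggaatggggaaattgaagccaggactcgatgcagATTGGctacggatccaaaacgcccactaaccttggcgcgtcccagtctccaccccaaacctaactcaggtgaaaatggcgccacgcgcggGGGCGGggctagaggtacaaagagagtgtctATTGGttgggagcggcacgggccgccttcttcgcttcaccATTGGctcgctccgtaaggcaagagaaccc
SC5D: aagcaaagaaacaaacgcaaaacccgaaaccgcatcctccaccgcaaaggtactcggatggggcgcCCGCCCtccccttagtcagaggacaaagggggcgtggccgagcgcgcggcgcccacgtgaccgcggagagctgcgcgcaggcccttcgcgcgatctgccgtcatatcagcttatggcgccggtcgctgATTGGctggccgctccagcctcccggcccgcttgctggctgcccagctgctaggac
DHCR7: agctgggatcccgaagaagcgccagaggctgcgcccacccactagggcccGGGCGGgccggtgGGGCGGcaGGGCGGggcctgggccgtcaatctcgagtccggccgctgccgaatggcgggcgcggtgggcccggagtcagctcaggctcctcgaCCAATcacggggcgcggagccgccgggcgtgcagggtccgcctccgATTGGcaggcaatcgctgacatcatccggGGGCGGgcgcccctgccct

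The EBP stretch held CCAAT 3 times, each on the other strand, with the nearest copy 30 to 26 bases before the start, and GGGCGG once. In SC5D there was 1 copy of each box, both on the other strand, and in DHCR7 there were 2 copies of CCAAT and 4 of GGGCGG. A sterol regulatory element written as TCACNCCAC, a binding sequence of SREBP, was searched on both strands and was not among the letters of these stretches. This spelling was found in 0 of 6 promoters searched on the way from acetyl-CoA to squalene and 0 of 7 from squalene to zymosterol. Of 9 promoters of sterol sensing and uptake genes, 1 held it, that of SREBF2. Its absence therefore does not set the stretches shown apart. Of 35116 promoter stretches of this length, 32.0% held CCAAT, 42.6% held GGGCGG and 0.883% held TCACNCCAC. Of the 22365 of these that belong to genes in the count table, 32.7% held CCAAT, 52.0% held GGGCGG and 0.876% held TCACNCCAC, and 3.16% held at least 3 copies of CCAAT. No boxes overlapped. A match is a run of letters and not a measured site. RefSeq entries used here gave SC5D a further start 81 bases downstream and DHCR7 a further start 650 bases upstream of the one shown, and the stretch shown is the one with most GENCODE transcript starts within 100 bases, 6 for both genes. Before the further start of SC5D both boxes were found, and before that of DHCR7 none of the motifs searched. The RefSeq stretch of LBR ends 786 bases before the start of its transcript with the best GENCODE support, LBR-201, and is not shown. It held none of the motifs searched. For EBP, 1 transcript with the best support, EBP-205, starts 650 bases upstream of the RefSeq start, so that the stretch shown lies downstream of that start. The same holds for SC5D-201, which starts 318 bases upstream, while SC5D-207, with the same support, starts 12 bases upstream.

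**Figure D1:**
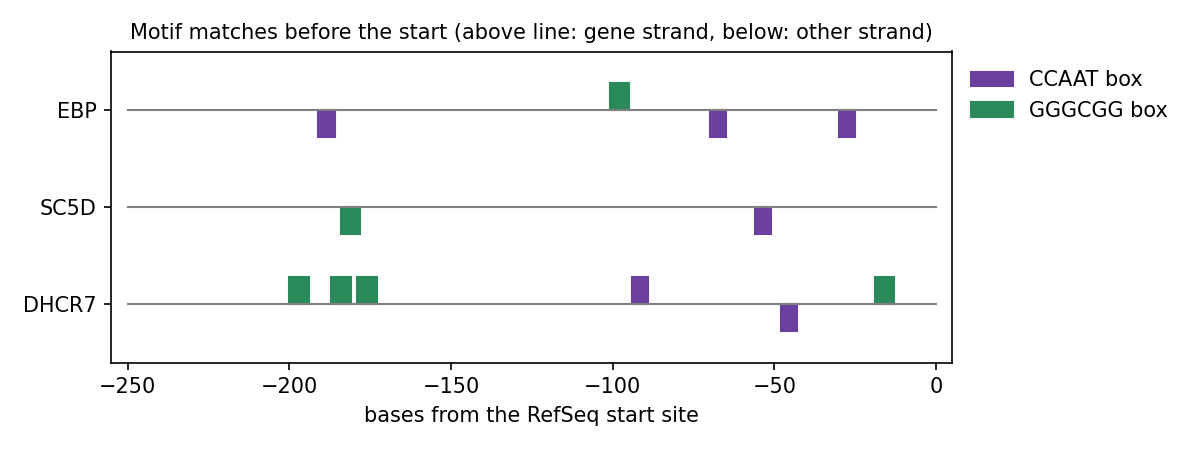
Positions of CCAAT and GGGCGG boxes in the 250 bases before the RefSeq start of EBP, SC5D and DHCR7. The x axis gives bases from the start, and a box above the line is on the strand of the gene and below it on the other strand. EBP held 3 CCAAT boxes and DHCR7 held 4 GGGCGG boxes.

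Per length of the gene model, the order of the transcript levels was the same in all 6 libraries. LBR was highest at 392 ± 6.26 TPM (transcripts-per-million, an abundance with the length of the gene model taken into account, scaled to the same sum in every library) in PA4 libraries and 383 ± 16.2 TPM in control libraries (SD, n = 3 each). EBP followed at 282 ± 7.39 TPM with PA4 and 251 ± 10.3 TPM in control. DHCR7 stood at 129 ± 1.50 TPM with PA4 and 97.3 ± 10.9 TPM in control. SC5D was lowest at 11.9 ± 0.816 TPM with PA4 and 9.42 ± 0.735 TPM in control. LBR was thus 1.35 to 1.46 times as high as EBP within PA4 libraries and 1.40 to 1.65 times within control libraries. EBP was 2.14 to 2.23 times as high as DHCR7 with PA4 and 2.37 to 2.74 times in control. DHCR7 exceeded SC5D by 10.2 to 11.7 times with PA4 and 8.79 to 11.6 times in control, so no neighbours in this order overlapped. Over all 6 libraries the levels of LBR and EBP were above those of 96.75% and 94.96% of the tested genes, that of DHCR7 above 85.6% and that of SC5D above 33.0%. These levels rest on deposited lengths of 3973 bases for LBR, 1157 for EBP, 2665 for DHCR7 and 7157 for SC5D. In GENCODE release 29 their exons cover 5257, 2409, 4160 and 5566 bases, and other lengths would change the ratios between genes.

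With PA4, the transcript of DHCR7 rose 1.33-fold, those of SC5D and EBP were estimated 1.26-fold and 1.12-fold higher without passing the test, and that of LBR was estimated at 1.02 times its control level. DHCR7, which catalyses the last reduction of the sterol ring, was the 1 member of the 4 that passed the edgeR test, where 0.215% of all tested genes were called higher. It had 134, 131 and 130 CPM in the PA4 libraries (replicates 1 to 3), against 112, 95.1 and 90.0 CPM in the control libraries. The lowest PA4 library was 1.16 times the highest control library, and the PA4 libraries lay close together while the control libraries spread. The coefficient of variation was 1.52% with PA4 and 11.8% in control, where counting alone gives 1.93% with PA4 and 2.29% in control. The means were 131 ± 2.00 CPM with PA4 and 99.2 ± 11.7 CPM in control (SD, n = 3 each), and the fold change had a 95% interval of 1.21 to 1.45 and an edgeR adjusted p of 0.00370. On the log2 scale this was 0.41 ± 0.061 (SE), above those of 98.8% of tested genes. The call was lost without control replicate 2, where the log2 fold change was 0.38 and the edgeR adjusted p 0.0844, and was kept in each of the other 16 alternative settings. In a bulk library, a change in RNA per cell and a change in the share of cells that carry the RNA cannot be told apart.

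SC5D, the desaturase that makes the substrate of DHCR7, had 33.4, 30.0 and 34.1 CPM in PA4 libraries and 26.0, 23.8 and 27.5 CPM in control libraries. The groups did not overlap, with the lowest PA4 library at 1.09 times the highest control library, and in both groups replicate 2 was lowest. Counts were 623 to 684 with PA4 and 458 to 524 in control, the fewest of the 4 members, and counting alone gives a coefficient of variation of 3.89% with PA4 and 4.50% in control. The observed coefficient was 6.77% with PA4 and 7.21% in control. The mean was 32.5 ± 2.20 CPM with PA4 and 25.8 ± 1.86 CPM in control (SD, n = 3 each). The estimate was 1.26-fold higher with PA4, with a 95% interval of 1.13 to 1.40, a log2 fold change of 0.33 ± 0.073 (SE) and an edgeR adjusted p of 0.101, so SC5D did not pass the test. It passed in 7 of 17 alternative settings, among them the DESeq2 Wald test, with an adjusted p of 0.0433. It also passed without control replicate 1, at an edgeR adjusted p of 0.0409, and without control replicate 3, at 0.0127. It did not pass without PA4 replicate 1, 2 or 3, at 0.629, 0.0664 and 0.475, or without control replicate 2, at 0.727.

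EBP, the isomerase whose product feeds SC5D, had 127, 126 and 120 CPM in PA4 libraries and 115, 113 and 105 CPM in control libraries. The lowest PA4 library was 1.04 times the highest control library, a gap of 4.92 CPM that was smaller than the range of 10.2 CPM within the control group. The means were 125 ± 3.70 CPM with PA4 and 111 ± 5.33 CPM in control (SD, n = 3 each). The estimate was 1.12-fold higher with PA4, with a 95% interval of 1.05 to 1.20, a log2 fold change of 0.16 ± 0.045 (SE) and an edgeR adjusted p of 0.309, so EBP did not pass the test. It passed in 4 of 17 alternative settings, 1 of which left out control replicate 1, with an edgeR adjusted p of 0.0363. In the other fits that left out 1 library, the edgeR adjusted p of EBP was 0.319 or more.

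LBR had 595, 587 and 603 CPM in PA4 libraries and 556, 593 and 596 CPM in control libraries. The groups overlapped, and control replicate 1 was below the other 5 libraries. LBR had 10747 to 13375 counts per library, so that counting alone gives a coefficient of variation below 1%, at 0.908% with PA4 and 0.946% in control. The means were 595 ± 8.10 CPM with PA4 and 582 ± 21.9 CPM in control (SD, n = 3 each). The fold change was 1.02, with a 95% interval of 0.975 to 1.07 and an edgeR adjusted p of 0.993. LBR passed the test in 0 of 17 alternative settings, and without control replicate 1 its log2 fold change was 0.0011. Before adjustment 3 of the 4 members passed 0.05 as higher with PA4 and 0 as lower, against 2.69% and 2.60% of all tested genes. Likewise 3 of the 4 had all PA4 libraries above all control libraries, and 0 had them all below, against 5.91% and 5.31% of tested genes.

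**Figure D2:**
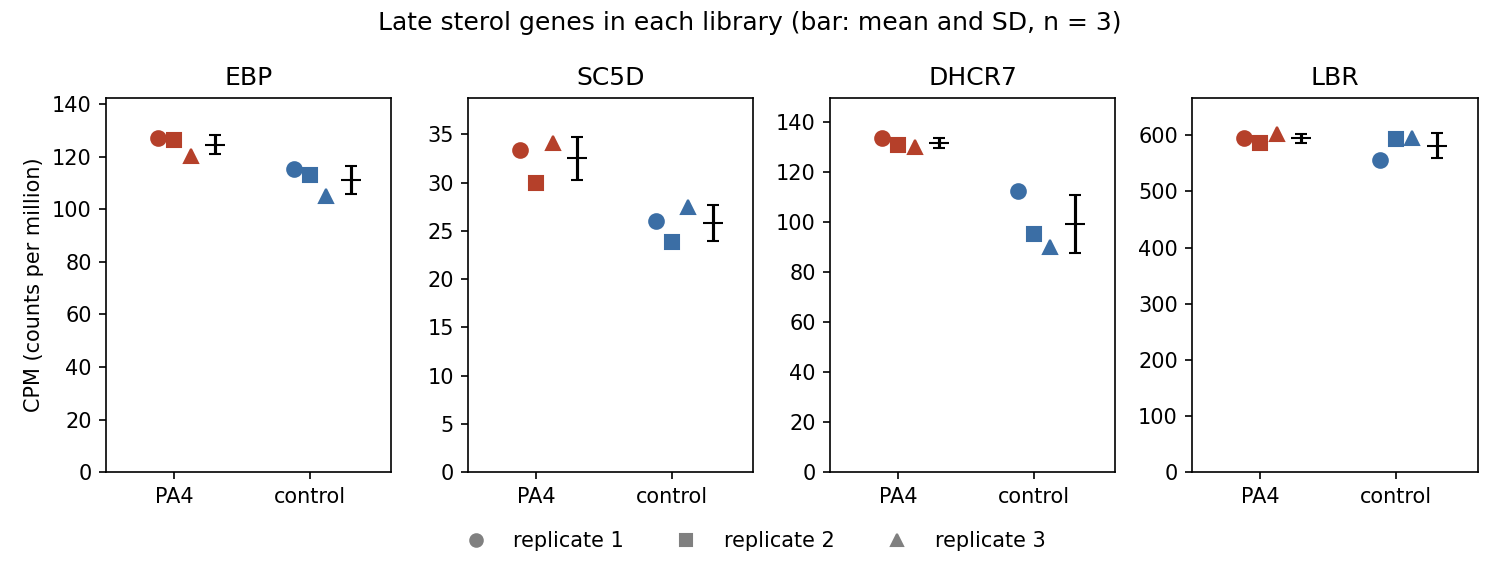
Level of EBP, SC5D, DHCR7 and LBR in each library, in CPM on axes that start at 0, with PA4 libraries left and control libraries right. Symbols are replicates and black bars are the mean and SD (n = 3). The PA4 libraries are all above the control libraries for EBP, SC5D and DHCR7, and overlap them for LBR.

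The members did not move by the same estimated amount. The ratio of one member to another within a library was compared over the 6 libraries for all 6 pairs. This ratio does not depend on how libraries are scaled, but it was not corrected for the GC trends of the libraries described below. The log2 ratio of the counts of DHCR7 to LBR was -2.15, -2.16 and -2.22 in PA4 libraries and -2.31, -2.64 and -2.73 in control libraries. The ratio was 1.30 times as high with PA4, and the groups did not overlap. For SC5D over LBR the log2 ratio was -4.20 ± 0.081 with PA4 and -4.50 ± 0.12 in control (SD, n = 3 each), so that the ratio was 1.23 times as high with PA4, again without overlap. For EBP over DHCR7 it was -0.077 ± 0.030 with PA4 and 0.17 ± 0.11 in control (SD, n = 3 each), and the ratio was 0.842 times as high with PA4, without overlap. Each of these 3 pairs had a two-sided exact permutation p of 0.1, the smallest that 3 against 3 libraries allow, and an adjusted p of 0.2 over the 6 pairs. EBP over LBR and EBP over SC5D differed by 0.13 and -0.17 log2 between PA4 and control, with overlapping groups, an exact permutation p of 0.2 and an adjusted p of 0.24. SC5D over DHCR7 differed by -0.078 log2, with an exact permutation p of 0.6 before and after adjustment, and without control replicate 3 this difference was 0.037. With 3 against 3 libraries this exact permutation test cannot pass a threshold of 0.05 for any pair.

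**Figure D3:**
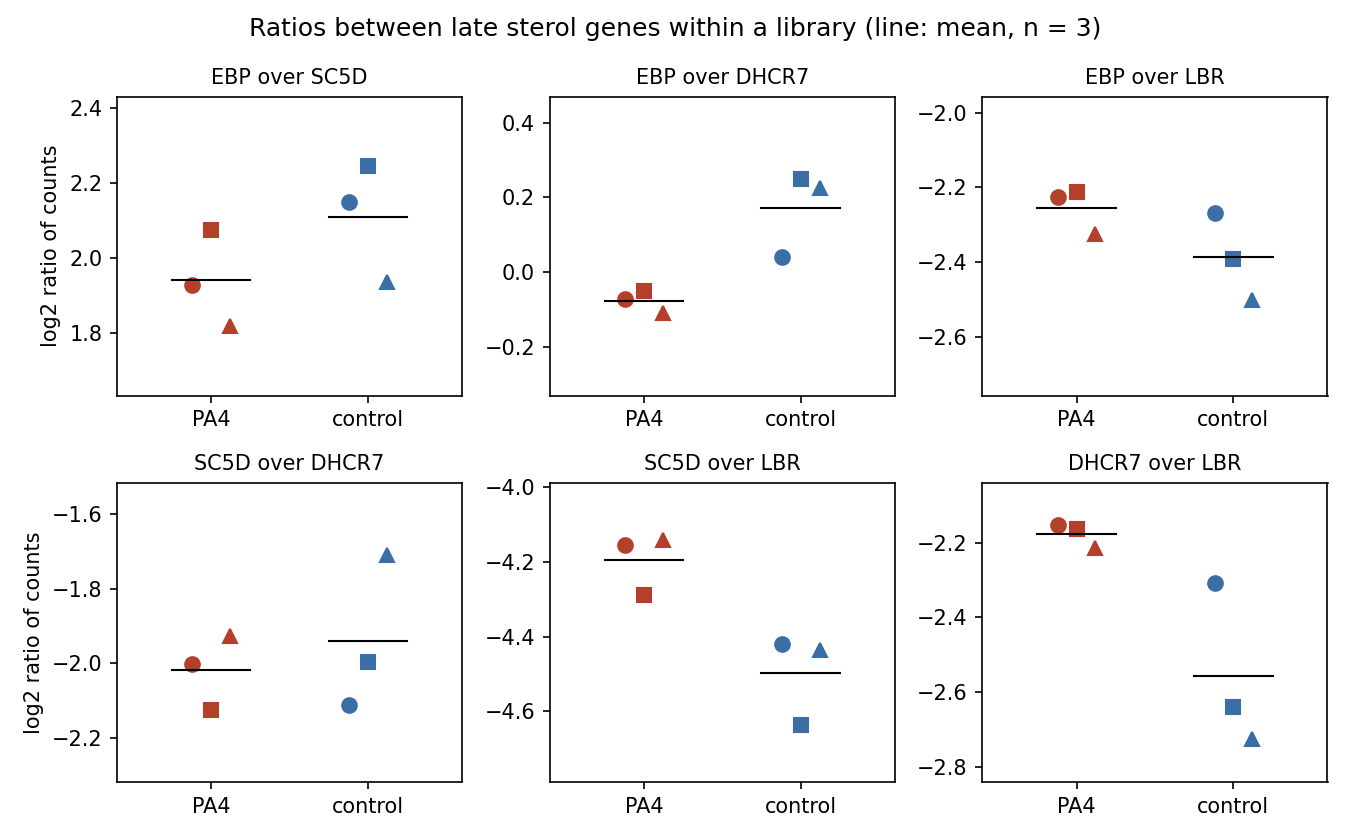
The log2 ratio of the counts of one late sterol gene to another in each library, with PA4 libraries left and control libraries right, and a line at the mean (n = 3). Every panel spans 0.8 log2 units. PA4 and control libraries are separate for EBP over DHCR7, SC5D over LBR and DHCR7 over LBR, and overlap for the other 3 pairs.

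The libraries differed in how levels varied with GC content. Across 11822 genes with a GC value, the Spearman correlation of a library's centred log2 CPM with transcript GC content was 0.0987, 0.224 and -0.316 in PA4 libraries 1 to 3 and 0.598, -0.102 and -0.517 in control libraries 1 to 3. Genes within a library share its preparation and are not independent. The transcripts of DHCR7 and EBP have 58.3% and 53.5% GC, and within the control group both were highest in replicate 1, which had the highest correlation, and lowest in replicate 3, which had the lowest. The transcripts of LBR and SC5D have 37.8% and 38.6% GC, and within the control group both were highest in replicate 3. LBR was lowest in control replicate 1, but SC5D was lowest in control replicate 2. With offsets that remove the GC trend of each library, the log2 fold changes were 0.41 ± 0.036 for DHCR7, 0.33 ± 0.061 for SC5D, 0.17 ± 0.031 for EBP and 0.037 ± 0.021 for LBR (SE), with edgeR adjusted p-values of 1.01e-08, 0.00256, 0.00407 and 0.569. The offsets moved the estimates little and lowered their SEs, and 106 genes were called with them, against 28 without.

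**Figure D4:**
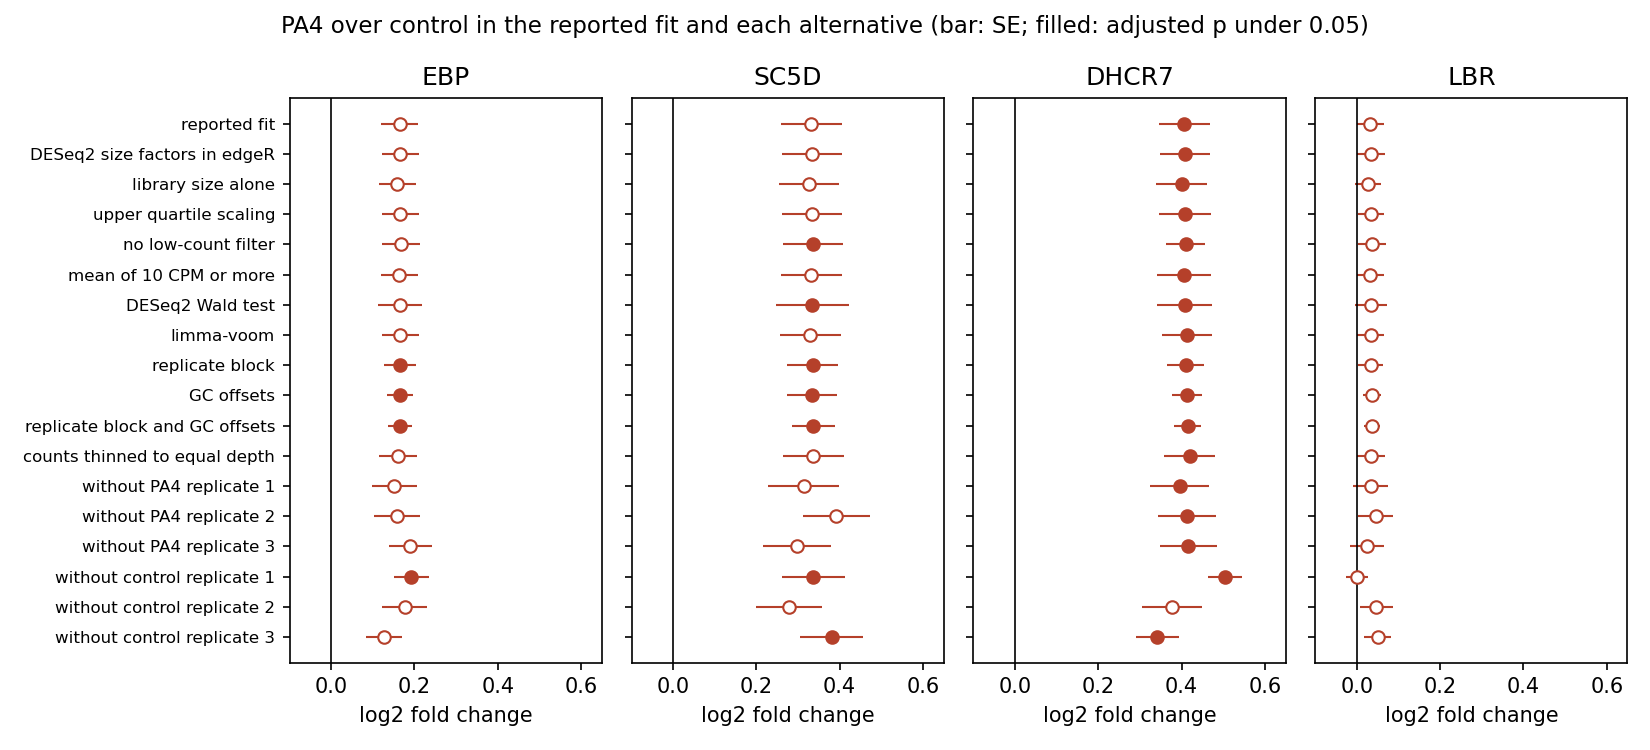
Log2 fold change of the 4 genes, PA4 over control, in the reported fit and in each of 17 alternatives. Bars are the SE and filled points have an adjusted p under 0.05. DHCR7 is filled in all but the fit without control replicate 2, and LBR in none.

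The rest of the pathway was described with gene lists that were chosen with earlier results of these data known. Of all tested genes, 0.215% were called higher by edgeR and 0.0165% lower, and 2.69% and 2.6% passed 0.05 before adjustment. All PA4 libraries lay above all control libraries for 5.91% of tested genes and below them for 5.31%. The counts for each list stand against these shares. Of 8 genes on the way from acetyl-CoA to squalene, all of them tested, 6 rose, 0 fell and 2 were not called. Their median log2 fold change was 0.43, against -0.0040 over all tested genes and 0.25 for the 4 late genes. Those 4 include LBR, at 0.032 log2. LBR catalyses the same step as TM7SF2, which is counted among the genes from squalene to zymosterol. Before adjustment 7 of the 8 passed 0.05 in the higher direction and 0 in the lower, and 7 had all PA4 libraries above all control libraries. HMGCS1, which condenses acetyl-CoA into HMG-CoA, had 669.9 ± 2.02 CPM with PA4 and 345 ± 17.5 CPM in control (SD, n = 3 each), with an edgeR adjusted p of 8.62e-11. IDI1, the isopentenyl diphosphate isomerase, rose 1.42-fold. MVK, the mevalonate kinase, rose 1.38-fold, which was not a call without PA4 replicate 1, PA4 replicate 3 or control replicate 2, at edgeR adjusted p-values of 0.258, 0.156 and 0.136. MVD, which yields isopentenyl diphosphate, rose 1.48-fold, a call that was lost without PA4 replicate 1, PA4 replicate 2 or control replicate 2, at edgeR adjusted p-values of 0.139, 0.0664 and 0.152. The 2 genes not called were FDPS, the farnesyl diphosphate synthase, at 0.17 ± 0.038 log2 (SE), and PMVK, the phosphomevalonate kinase, at 0.076 ± 0.097 log2 (SE).

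Of 8 genes that carry squalene to zymosterol or catalyse related reactions, 7 were tested, 5 rose and 0 fell, with a median log2 fold change of 0.48. All 7 passed 0.05 before adjustment, in the higher direction, with no overlap between the groups. MSMO1, an oxidase of the carbon 4 methyl groups, had 123, 122 and 126 CPM with PA4 and 75.0, 75.9 and 74.3 CPM in control, and rose 1.65-fold. SQLE, the squalene epoxidase, CYP51A1, the lanosterol demethylase, and LSS, the lanosterol synthase, rose 1.39-fold, 1.39-fold and 1.34-fold. NSDHL, a dehydrogenase of the same demethylation as MSMO1, had 43.2 ± 0.265 CPM with PA4 and 37.1 ± 0.677 CPM in control (SD, n = 3 each), without overlap, and an edgeR adjusted p of 0.211. FAXDC2, a hydroxylase-like relative, was not tested because of low counts. Without a stated strand setting, part of the reads of some of these genes cannot be assigned with certainty: FDPS shares 18.6% of its exon bases with RUSC1-AS1 and IDI1 14.8% with IDI2-AS1, each on the other strand.

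**Figure D5:**
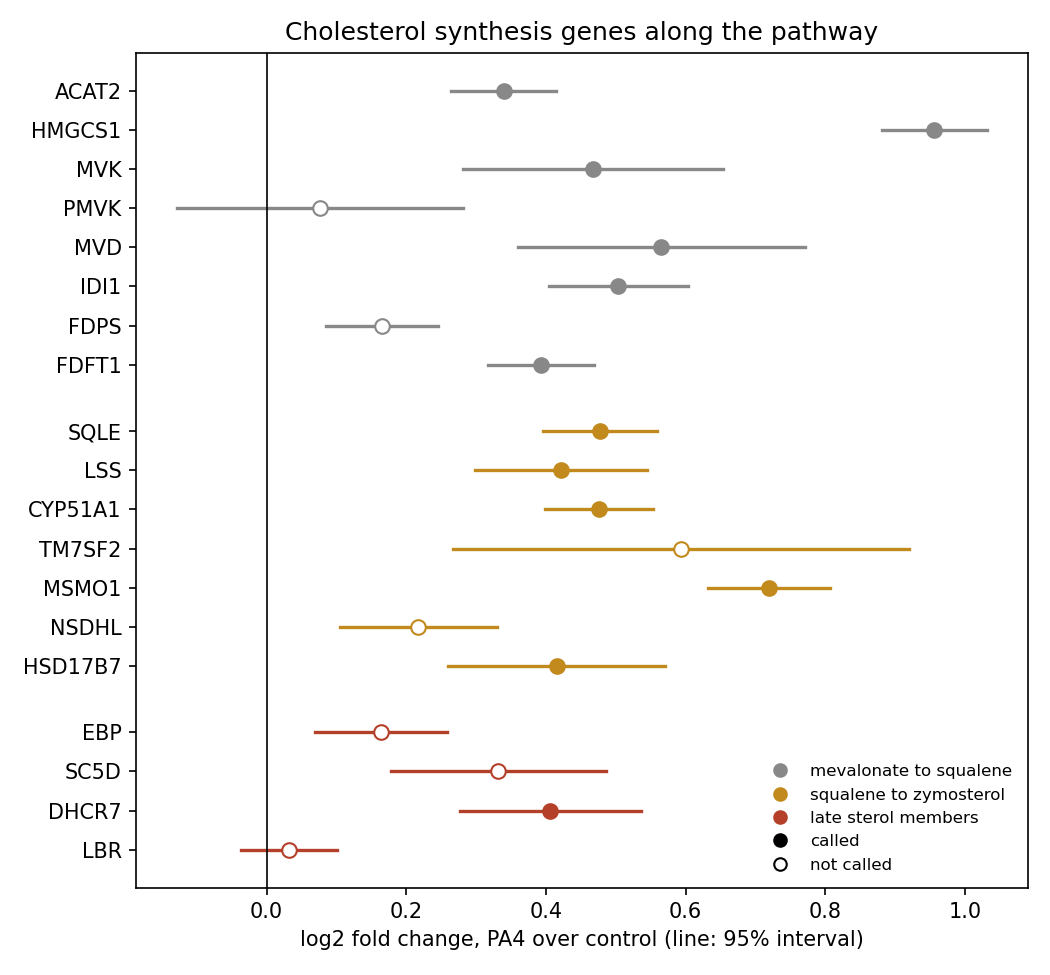
Log2 fold change, PA4 over control, with 95% intervals for tested genes of cholesterol synthesis, the 4 late genes last. Genes run in pathway order from top to bottom, except LBR, which catalyses the same step as TM7SF2 but is drawn last. Filled points were called in edgeR. The estimates are 0.96 for HMGCS1, the highest, and 0.16, 0.33, 0.41 and 0.032 for EBP, SC5D, DHCR7 and LBR.

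TM7SF2, the second reductase of the carbon 14 step, is the closest functional counterpart of LBR. It had 121, 116 and 78 counts in PA4 libraries and 73, 66 and 57 counts in control libraries, without overlap. That is 8.35 ± 1.37 TPM with PA4 and 5.55 ± 0.609 TPM in control (SD, n = 3 each), and a log2 fold change of 0.59 ± 0.15 (SE) with an edgeR adjusted p of 0.260, which is not a call. Per length, LBR exceeded TM7SF2 by 40.0, 46.5 and 56.8 times in PA4 libraries and by 59.3, 69.6 and 80.2 times in control libraries. Among the transcripts of these 2 reductases, LBR was therefore the more abundant in each of the 6 libraries, and the PA4 and control ranges of the ratio did not overlap. The transcript of TM7SF2 has 64.2% GC and that of LBR 37.8%, and this ratio was not corrected for the GC trends of the libraries. The summed level of the 4 members was 814 ± 4.46 TPM with PA4 and 741 ± 5.65 TPM in control (SD, n = 3 each). Of this sum DHCR7 made up 15.8% ± 0.102 with PA4 and 13.1% ± 1.42 in control, and LBR 48.1% ± 0.837 with PA4 and 51.7% ± 2.44 in control (SD, n = 3 each).

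Relatives of EBP gave 1 call among 2 tested genes, and 2 more, TM6SF1 and TM6SF2, were not tested. TMEM97, the sigma-2 receptor, which belongs to the same protein family as EBP, had 164, 154 and 159 CPM with PA4 and 131, 139 and 140 CPM in control, and rose 1.16-fold with an edgeR adjusted p of 0.0376. Its call was lost without any 1 of the PA4 replicates or without control replicate 2, at adjusted p-values of 0.472, 0.0843, 0.204 and 0.206. Its exons share 361 bases, 11.9% of their length, with those of IFT20 on the other strand, and whether counting used strand is not given in the sources used here. EBPL, the EBP-like gene, had 24.3 ± 1.50 CPM with PA4 and 23.9 ± 1.19 CPM in control (SD, n = 3 each) and was not called. Its direction depended on which library was left out.

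The 5 fatty acid hydroxylase relatives of SC5D held 1 tested gene, MSMO1, described above, while CH25H, FAXDC2, FA2H and AGMO had too few counts. Of 7 genes that pass electrons to sterol enzymes, such as the reductase gene POR and the cytochrome b5 genes, 0 were called by edgeR and 0 had an unadjusted p under 0.05, with a median log2 fold change of 0.025. CYB5R1, a cytochrome b5 reductase, was at 0.14 ± 0.087 log2 (SE) and CYB5A, a cytochrome b5, at -0.091 ± 0.053 log2 (SE). Of 10 genes of sterol sensing and uptake, 9 were tested, 1 rose and 0 fell, with a median log2 fold change of 0.0031. Before adjustment 3 passed 0.05 in the higher direction and 1 in the lower. The gene that rose was INSIG1, which holds SREBP in the endoplasmic reticulum, at 213 ± 3.14 CPM with PA4 and 129.7 ± 3.25 CPM in control (SD, n = 3 each). STARD4, a sterol carrier, was at 0.37 ± 0.078 log2 and MYLIP, a ubiquitin ligase, at -0.19 ± 0.066 log2 (SE), neither of them called.

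Among 13 partners of LBR at the nuclear lamina, 1 rose and 0 fell, with a median log2 fold change of 0.014, and before adjustment 2 passed 0.05 in the higher direction and 0 in the lower. LMNA, which encodes lamins A and C, had 25.8, 23.7 and 22.3 CPM with PA4 and 18.3, 19.1 and 16.1 CPM in control, and rose 1.34-fold with an edgeR adjusted p of 0.0438. The call was lost without PA4 replicate 1, PA4 replicate 2, control replicate 2 or control replicate 3, at adjusted p-values of 0.412, 0.158, 0.112 and 0.0651, with library size alone, at 0.0539, and over genes of at least 10 CPM, at 0.0592. LMNB1, a B-type lamin that LBR binds, had 352 ± 7.11 CPM with PA4 and 333 ± 3.20 CPM in control (SD, n = 3 each), which is 0.078 ± 0.032 (SE) on the log2 scale and was not called. LEMD3, an inner nuclear membrane protein, was at 0.11 ± 0.056 log2 (SE), also not called.

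Of 16 genes that use, sense, esterify or export late sterols, 8 had enough counts to be tested, 0 rose and 1 fell, the same counts as at an unadjusted p under 0.05. ABCG1, a sterol exporter, fell to 14.8 ± 0.960 CPM with PA4, against 19.9 ± 1.38 CPM in control (SD, n = 3 each), with an edgeR adjusted p of 0.0404. That call was lost without any 1 of the PA4 replicates or without control replicate 2, at adjusted p-values of 0.388, 0.185, 0.0639 and 0.152. VDR, the vitamin D receptor, was at 0.096 ± 0.11 log2 and HSD3B7, a dehydrogenase of bile acid synthesis with under 1 CPM, at -0.090 ± 0.29 log2 (SE), neither called. The genes not tested included CYP27A1, CYP11A1, CYP46A1, CYP7B1, CYP24A1 and SOAT2.

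The genes whose pattern over the 6 libraries was most like that of each member were found among 8268 genes of at least 10 CPM, by the root mean square difference of log2 CPM centred on each gene. This measure includes the difference between PA4 and control, so the genes found have a change near that of the member by selection. For DHCR7 they were HSD17B7, the ketone reductase of carbon 4 demethylation, LSS and the fatty acid desaturase FADS2, at 0.052, 0.055 and 0.063 log2. HSD17B7 rose by 0.42 ± 0.073 log2 (SE), and its reads may be split with those of its pseudogene HSD17B7P2. The call did not hold without PA4 replicate 1, PA4 replicate 3 or control replicate 2, at edgeR adjusted p-values of 0.213, 0.0616 and 0.207. For SC5D the likest were ELOVL6, a fatty acid elongase, ACAT2, which makes acetoacetyl-CoA, and the chloride transporter gene CLCN6, at 0.055, 0.059 and 0.068 log2. ELOVL6 rose by 0.38 ± 0.067 log2 (SE), which was not a call without any 1 of the PA4 replicates or without control replicate 2, at edgeR adjusted p-values of 0.139, 0.0664, 0.121 and 0.249. FADS2 rose by 0.51 ± 0.048 log2 (SE). ACAT2 rose by 0.34 ± 0.036 log2 (SE), with 26.5% of its exon bases shared with SOD2 and 9.24% with TCP1, both on the other strand. For EBP they were ZFP36, which encodes an RNA-binding protein that promotes mRNA decay, PGBD5, a transposase-derived gene, and FDPS, at 0.022, 0.024 and 0.026 log2, none of them called. For LBR they were RSL1D1, a nucleolar protein gene, CANX, the calnexin gene, and the chaperone gene HSP90AA1, at 0.0048, 0.0064 and 0.0072 log2, none of them called. These 3 are abundant genes with near-equal values in all libraries, and the spread of LBR itself was 0.037 log2. Between members the difference was smallest for EBP and LBR, at 0.0997 log2, which is above the spread of EBP itself, 0.0946 log2. It lay at 0.14 log2 for SC5D and DHCR7, for EBP and DHCR7 and for EBP and SC5D. For SC5D and LBR it was 0.17 log2, and it was largest for DHCR7 and LBR, at 0.23 log2. Among 8563 other genes of at least 10 CPM, with no names left out, LBR had rank 2872 in likeness to EBP, and EBP rank 6544 to LBR. SC5D had rank 48 in likeness to DHCR7, and DHCR7 rank 251 to SC5D. EBP had a similar rank of 57 in likeness to DHCR7, but DHCR7 had rank 6979 to EBP.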

How the data were processed

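The deposited table held raw read counts per gene symbol, 1 column per library, with no normalization by the authors, and the length of each gene model in bases, per the file headers. Per the submitters' processing notes, Trimmomatic 0.39, fastp 0.23.2, STAR 2.7.9a, featureCounts of Subread 1.6.4 and hg38 (GRCh38) were used. Annotation and strand setting: not given in the sources used here.

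Testing used edgeR 4.0.16 in R 4.3.3: filterByExpr, TMM scaling, estimateDisp, glmQLFit and glmQLFTest, two-sided, on all 6 libraries with no covariate, with Benjamini-Hochberg adjustment over 12107 genes and a threshold of 0.05. The procedure was first tested on simulated data, which did not hold the GC trends of these libraries. CPM use TMM-scaled totals and TPM the deposited lengths. SEs come from the F statistic and intervals are 95%. Ratios of members are of counts plus 0.5. Coefficients of variation from counting cover counting error only.

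Alternatives included DESeq2 1.42.0, limma 3.58.1 (voom), a replicate block and offsets for GC content of GENCODE 29 transcripts. The members and lists were chosen with earlier results of these data known. All members were named. From each list the rule took up to 4 called genes and 2 others with the largest changes, and TM7SF2, EBPL, TMEM97, LMNB1 and LMNA, with the 3 genes likest to each member, leaving out clone, pseudogene-like and antisense names. Markers, untested genes and POR were named outside it after their values were seen. Some genes of the pathway and of the lists first drawn up are not reported here, and the lists are counted without them.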

Additional observations from a re-analysis of the deposited data

How the results depend on the processing

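The 4 members kept a positive log2 fold change in all 17 alternatives. EBP, not called in the reported fit, was called with the replicate block (0.16, adjusted p 0.0451), GC offsets (0.17) and both (0.16), and ranged from 0.13 to 0.19 when 1 library was left out. SC5D was called with no low-count filter (0.34), the DESeq2 Wald test (0.33), the replicate block (0.34), GC offsets (0.33) and both (0.34), and ranged from 0.28 to 0.39 when 1 library was left out. DHCR7 ranged from 0.34 to 0.51. The cause of these changes was not tested. Against 28 genes called, the count was 62 with no filter, 59 with the replicate block, 106 with GC offsets, 113 with both, 18 without PA4 replicate 1, 17 without control replicate 2 and 74 without control replicate 1. Sterol sensing and uptake, with 1 call, had 2 with no filter, with DESeq2, with the block and without control replicate 1 or control replicate 3, and 3 with GC offsets, alone or with the block. Its lowest count without 1 library was 1. The partner and user lists, with 4 calls, had 1 without PA4 replicate 1, PA4 replicate 2 or control replicate 2, 2 without PA4 replicate 3, 3 without control replicate 3 and 4 without control replicate 1. The difference for SC5D over DHCR7 ranged from -0.16 to 0.037. Values that changed sign when 1 library was left out ranged from -0.024 to 0.14 log2 for PMVK, -0.026 to 0.059 for EBPL, -0.29 to 0.027 for HSD3B7, -0.0017 to 0.041 for CANX and -0.00055 to 0.050 for HSP90AA1. Same-numbered libraries deviated together with correlations across genes of 0.16, -0.089 and 0.42, and 3 of 6 libraries correlated best with their own number, so the numbers are not shown to pair the libraries. Within-number tests of the ratios cannot go below an exact p of 0.25. Depth limits the genes with few counts, with lowest libraries of 458 counts for SC5D, 57 for TM7SF2 and 11 for HSD3B7.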
